A study of Mus musculus with 2 samples.

Results

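The nuclear genome encodes most proteins of the mitochondrial respiratory chain and of ATP synthase, and these genes were followed across the immune cells of mouse liver. Members were all gene rows whose symbol begins with Ndufa, Ndufb, Ndufc, Ndufs, Ndufv, Uqcr, Cox4i, Cox5, Cox6, Cox7, Cox8 or Atp5, without the Ndufaf assembly factors and without Cox6a2. This gave 84 of the 33696 gene rows, of which 41 belonged to complex I, 8 to complex III, 18 to complex IV and 17 to complex V. The rule used symbols only and no measured value, but it was set with earlier results of these data known.

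Both libraries were made from CD45+ cells of the livers of wild-type C57BL/6J mice, enriched on a Ficoll gradient and sorted by flow cytometry. The untreated library came from mice matched in age, with no age stated. The ConA library came from mice that received the plant lectin concanavalin A, an activator of T cells, into a vein at 10 mg/kg, as 1 injection a week for 3 weeks, a schedule the submitters describe as a tolerance model. The sources used here do not say how many mice went into a library. With 1 library per group no difference could be tested, and every difference below describes these 2 libraries.

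Oxidative phosphorylation passes electrons from NADH through complex I, and from succinate through complex II, to complex III, cytochrome c and complex IV, which reduces oxygen, while the protons pumped on the way drive the ATP synthase, complex V. Complexes I, III, IV and V combine nuclear subunits with a few core subunits encoded by mitochondrial DNA, and complex II is encoded by the nucleus alone. Activated and dividing lymphocytes are known to build mitochondria, and mature neutrophils to hold few of them and to rely on glycolysis.

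The untreated library held 71289226 unique molecular identifiers (UMIs, counted transcript molecules) in 18088 barcodes and the ConA library 73589264 in 18762. After filters 17632 and 17767 cells remained, with medians of 3128 and 3471 UMIs, and 82 barcode sequences occurred in both libraries. Cells were gated on lineage marker UMIs, which placed 11614 untreated and 10581 ConA cells in a class and left the others ungated. Median UMIs per cell ranged from 2596 to 7161 over the 6 compared classes of the untreated and from 2974 to 6565 over those of the ConA library. The comparison used the 6 classes that had 100 cells or more in each library, and in these every marker of the class's own list was detected. Ptprc, the gene of CD45, stood at 1028 to 2711 CPM (UMIs per 1000000 UMIs of the class) in B, T, NK with ILC1, dendritic, mononuclear phagocyte and neutrophil classes, but at 109.7 and 156 CPM in the erythroid class of the untreated and ConA library. In the 6 classes the 41 to 45 markers of the other 9 lineages summed to 525 to 1001 CPM in the untreated and 535 to 988 CPM in the ConA library, with 0 to 6 of them at 0.

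The summed level of the members separated the cell classes more widely than it separated the libraries. It was 6359 CPM in untreated neutrophils and 8939.7 CPM in untreated B cells, against 14389 CPM in T cells and 14624 CPM in plasmacytoid dendritic cells (pDC). Mononuclear phagocytes (monocytes and macrophages) held 17038 CPM, and natural killer cells with type 1 innate lymphoid cells (NK with ILC1) 17165 CPM. In the ConA library neutrophils held 7642 CPM, B cells 8574 CPM, T cells 12577 CPM, pDC 13056 CPM, mononuclear phagocytes 16284 CPM and NK with ILC1 13909.6 CPM. Neutrophils and B cells were the lowest in both libraries, and NK with ILC1 and mononuclear phagocytes exchanged the first place. CPM is a share of a class's transcripts, so it does not measure the amount per cell. Behind each sum were 15790 to 290704 member UMIs.

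**Figure D1:**
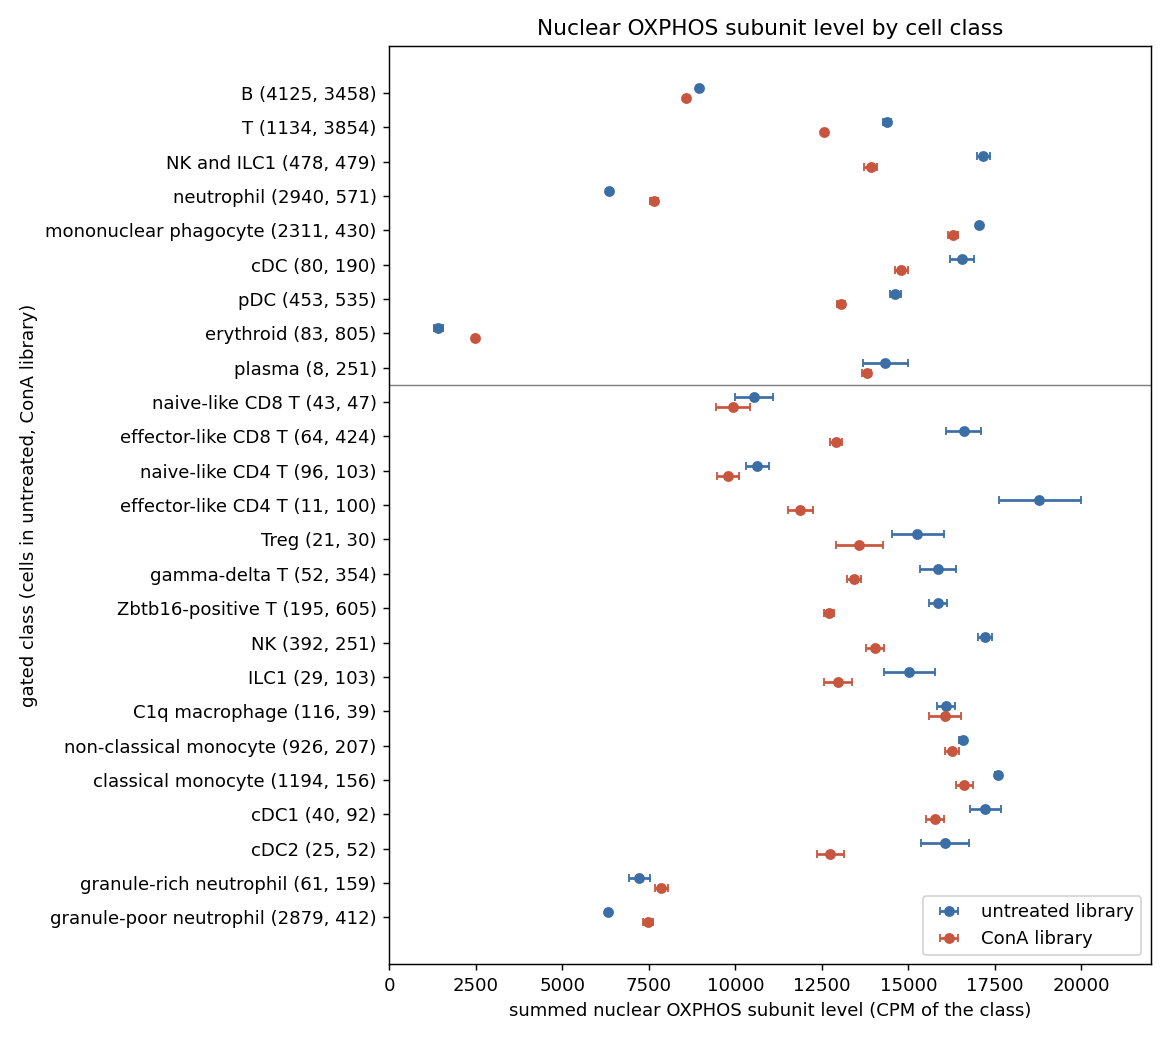
Summed level of the nuclear subunit genes as CPM of the class (x axis) for each gated class and subclass (y axis, with cell numbers), with the untreated library in blue, the ConA library in red and exact Poisson 95% intervals of counting error. Neutrophils and erythroid cells have the lowest levels, and the ConA point lies to the left of the untreated one in the T, NK and ILC1 subsets.

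The ConA library was lower than the untreated one in 5 of the 6 classes and higher in neutrophils. The log2 ratio of the sums, ConA over untreated, was -0.30 in NK with ILC1 (95% interval -0.33 to -0.28, exact conditional Poisson, counting error only) and -0.19 in T cells (interval -0.21 to -0.18). It was -0.16 in pDC, -0.065 in mononuclear phagocytes and -0.060 in B cells, with intervals below 0 in each, and 0.27 in neutrophils (interval 0.24 to 0.29). The sizes depended on processing choices. Under a purer gate the ratio was -0.053 in T cells (144 and 823 cells) and -0.14 in NK with ILC1 (43 and 107 cells). Relative to the median of all measured genes, which stood at 0.076 to 0.25 in the 6 classes, the ratio was 0.012 in neutrophils, -0.14 in B cells, -0.21 in mononuclear phagocytes, -0.24 in pDC, -0.27 in T cells and -0.40 in NK with ILC1.

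A gene was called measured in a class with a mean of at least 20 CPM over the libraries and at least 50 UMIs in all. Of the 84 members 74 were measured in at least 1 of the 6 classes, 67 in each of the 6 and 10 in none. The other 7 were too low in neutrophils alone and all belonged to complex I (Ndufv1, Ndufs3, Ndufa5, Ndufa9, Ndufa10, Ndufa12 and Ndufab1). Past 1.5-fold lower in the ConA library were 9 of 74 members in NK with ILC1, beside 6.91% of all 6624 measured genes. In T cells it was 1 of 74, beside 4.66%, and in B cells (4.62%), pDC (5.67%), mononuclear phagocytes (8.01%) and neutrophils (12.1%) it was 0. Past 1.5-fold higher were 8 of 67 members in neutrophils, beside 23.6% of all 4939 measured genes. No member was past 1.5-fold higher in B cells (2.86% of all genes), T cells (5.25%), pDC (8.44%), NK with ILC1 (11.0%) or mononuclear phagocytes (14.4%). The members' share exceeded that of all genes in NK with ILC1 lower alone, with 12.2% of members beside 6.91%.

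Small ratios of the same sign were common among the members. In T cells 69 of 74 measured members were below 0, with a median log2 ratio of -0.24 against 0.076 for all genes. In NK with ILC1 70 of 74 were below 0, with -0.29 against 0.10, and in pDC 64 of 74, with -0.16 against 0.076. In mononuclear phagocytes 54 of 74 (-0.081 against 0.14) and in B cells 50 of 74 (-0.061 against 0.080) were below 0. In neutrophils 59 of 67 were above 0, with 0.33 against 0.25. Most of all measured neutrophil genes were above 0 as well, as their median shows. For the sign counts the medians of all genes stand in place of shares by sign, which are not given. The members with a counting interval below 0 were 57 in T cells, beside 22.3% of all genes, 45 in NK with ILC1 (15.4% of all genes), 29 in pDC (15.1%), 26 in mononuclear phagocytes (21.0%) and 16 in B cells (19.0%). In neutrophils 42 had an interval above 0, beside 47.0% of all genes. Of the 67 members measured in each class, 29 (43.3%) were above 0 in neutrophils and below 0 in the other 5, a pattern held by 215 (5.69%) of the 3781 genes measured in each. This pattern is that of the summed members in the same data, so the members' larger share follows in part from that choice. The 6 classes come from the same 2 libraries and are not independent samples.

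**Figure D2:**
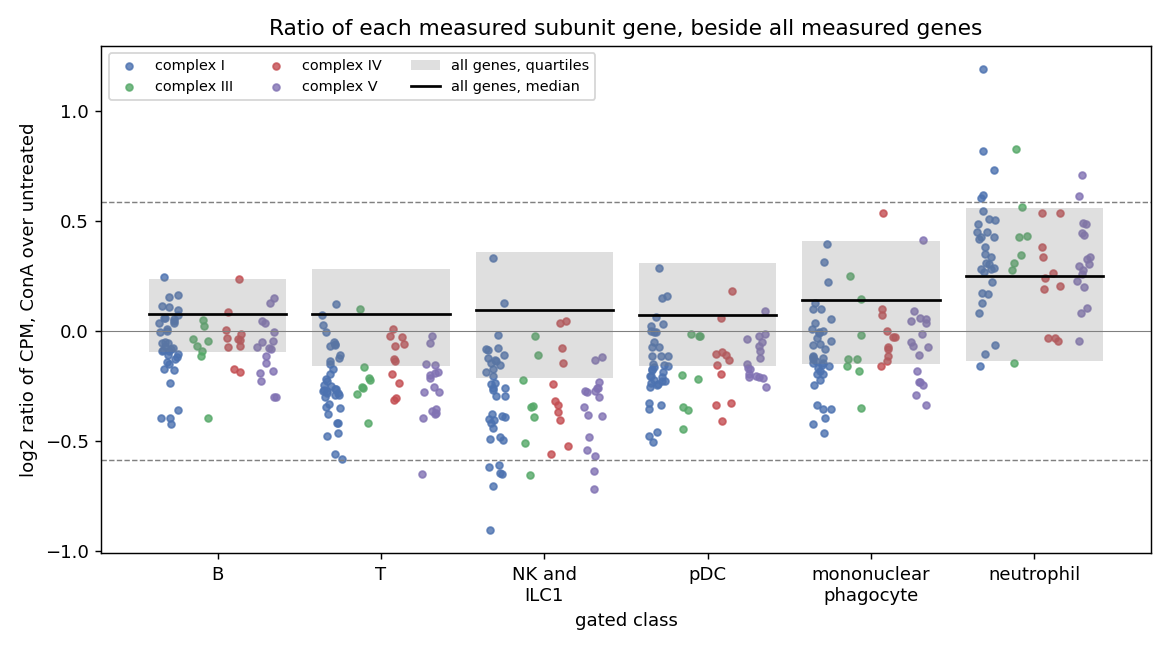
Log2 ratio of CPM, ConA over untreated (y axis), of each measured member in the 6 classes (x axis), coloured by complex, with the median and quartiles of all measured genes and lines at 1.5-fold. Most members lie below the median of all genes outside neutrophils, and few lie past 1.5-fold.

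Transcripts of other lineages, which free RNA from broken cells can bring into a droplet, differed between the libraries. S100a8 and S100a9, genes of neutrophils, summed to 1106 to 1974 CPM in the other 5 classes of the untreated library and to 418 to 1177 CPM in those of the ConA library. Relative to their level in all cells of the same library pooled, this was 5.42% to 9.67% in the untreated library. In the ConA library it was 6.15% to 17.3%, and higher than in the untreated one in each of these 5 classes. Haemoglobin genes summed to 1047 to 5298 CPM in the 6 untreated classes and to 4710 to 18180.3 CPM in the ConA classes. After 10% of the library's pooled profile was subtracted, the member ratio was -0.041 in B cells, -0.20 in T cells, -0.31 in NK with ILC1, -0.16 in pDC, -0.056 in mononuclear phagocytes and 0.36 in neutrophils. Dissociation stress genes summed to 4341 and 3076 CPM in neutrophils, 3112 and 2237 CPM in mononuclear phagocytes and 1073 and 1448 CPM in pDC. Their part in the ratios was not tested.

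Effector-like T cells held more member transcripts than naive-like ones in both libraries. Among CD8 T cells the effector-like gate (Ccl5, Nkg7, Cxcr6 and Ifng) had 16600 against 10532 CPM in the naive-like gate of the untreated library, a 1.58-fold difference (64 and 43 cells). In the ConA library it had 12911 against 9928 CPM, a 1.30-fold difference (424 and 47 cells). Among CD4 T cells the values were 18769 against 10629 CPM in the untreated (11 and 96 cells) and 11871 against 9786 CPM in the ConA library (100 and 103 cells), or 1.77-fold and 1.21-fold. The gap was narrower in the ConA library in both lineages, with 11 cells behind the untreated effector-like CD4 value, and the narrowing was not tested.

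The libraries differed more in effector-like and innate-like T cells than in naive-like ones. The log2 ratio of the summed members in effector-like cells was -0.36 for CD8 (interval -0.41 to -0.31) and -0.66 for CD4 T cells (interval -0.76 to -0.56). In naive-like cells it was -0.085 for CD8 (interval -0.19 to 0.019) and -0.12 for CD4 T cells (interval -0.18 to -0.054). Zbtb16-positive T cells, a gate on a transcription factor of NKT and other innate-like T cells, held 15858 and 12716 CPM (195 and 605 cells), and 4 of their 74 measured members were past 1.5-fold lower, beside 8.01% of all genes. Gamma-delta T cells held 15858 and 13427 CPM (52 and 354 cells) and Foxp3-positive regulatory T cells 15264 and 13576 CPM (21 and 30 cells). Each of the 7 T subclasses had the lower level in the ConA library, and the interval of naive-like CD8 T cells included 0. The subsets took different parts of the T class in the libraries. Of 1134 untreated and 3854 ConA T cells, 64 and 424 were effector-like CD8 and 96 and 103 naive-like CD4. The ratio of the whole T class mixes subset levels with these shares, and their parts were not tested.

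NK cells and ILC1 were each lower in the ConA library. NK cells (Eomes, Itga2 and Ly49 receptors) held 17217 and 14031 CPM (392 and 251 cells) and ILC1 (Cxcr6, Itga1, Il7r and Cd200r1) 15018 and 12967 CPM (29 and 103 cells). In NK cells 10 of 74 members were past 1.5-fold lower, beside 8.80% of all genes. Subsets of mononuclear phagocytes differed little between the libraries. Classical monocytes held 17580.4 and 16623 CPM (1194 and 156 cells), non-classical monocytes 16574 and 16270.1 CPM (926 and 207 cells) and C1q-positive macrophages 16086 and 16056 CPM (116 and 39 cells). Conventional dendritic cells held 17220.5 and 15770.3 CPM in type 1 (40 and 92 cells) and 16047 and 12749.5 CPM in type 2 (25 and 52 cells).

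Neutrophils of the ConA library held a larger share of cells rich in secondary granule transcripts (Ltf, Ngp, Camp and Cebpe, genes of immature neutrophils), 159 of 571 cells against 61 of 2940. The summed level was higher in the ConA library in each subset. Granule-rich cells held 7226 and 7859.9 CPM (log2 ratio 0.12, interval 0.054 to 0.19) and granule-poor cells 6323 and 7478 CPM (0.24, interval 0.21 to 0.27). In granule-poor cells 6 of 68 measured members were past 1.5-fold higher, beside 30.4% of all genes (Ndufab1, Ndufb6, Ndufs6, Ndufs7, Ndufs8 and Ndufv3), and the members' median of 0.26 stood beside 0.35 for all genes. Of the 8 members past 1.5-fold higher in all neutrophils, Ndufv3 was so in granule-poor cells, and Ndufv3 and Uqcrb in granule-rich ones. S100a8 and S100a9 alone took 144257 and 159988 CPM of neutrophils, and without these, haemoglobin and immunoglobulin genes the neutrophil ratio was 0.32.

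In B cells, T cells and mononuclear phagocytes, cycling cells (at least 2 UMIs of Mki67, Top2a, Birc5 and Ube2c) held more member transcripts than cells of the same class with none. In T cells the sums were 20398 against 13718 CPM in the untreated and 16978 against 12258 CPM in the ConA library, 1.49-fold and 1.39-fold. In B cells the folds were 1.44 and 1.62, and in mononuclear phagocytes 1.07 and 1.41. Without cycling cells the ratio between libraries was -0.16 in T cells, -0.092 in B cells and -0.14 in mononuclear phagocytes.

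Complex I, the NADH dehydrogenase, took 34.0% to 36.6% of member UMIs in the 6 classes. Its summed log2 ratio was -0.29 in NK with ILC1, -0.21 in T cells, -0.18 in pDC, -0.12 in mononuclear phagocytes, -0.050 in B cells and 0.30 in neutrophils. Of its measured genes 6 of 38 were past 1.5-fold lower in NK with ILC1 (Ndufv1, Ndufb4, Ndufs3, Ndufs6, Ndufa12 and Ndufc2), and 5 of 31 past 1.5-fold higher in neutrophils (Ndufv3, Ndufb3, Ndufa1, Ndufa11 and Ndufb11). Beside them stood 6.91% and 23.6% of all genes.

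The flavoprotein Ndufv1, which takes electrons from NADH, was among the 2 lowest members by ratio in 4 classes. It stood at 37.9 and 20.3 CPM (log2 ratio -0.90, interval -1.55 to -0.29) in untreated and ConA NK with ILC1, on 71 and 33 UMIs, and at 37.1 and 24.7 CPM (log2 ratio -0.58, interval -0.84 to -0.32) in T cells. In pDC it stood at 44.7 and 32.1 CPM (-0.48), in B cells at 27.3 and 20.3 CPM (-0.42) and in mononuclear phagocytes at 43.7 and 38.1 CPM (log2 ratio -0.20, interval -0.49 to 0.089). Its iron-sulfur partner Ndufv2 stood at 66.7 and 50.7 CPM (-0.40) in B cells and 96.7 and 72.5 CPM (-0.42) in NK with ILC1. Ndufs1, the largest iron-sulfur subunit of the same NADH-binding module, was above 0 in 5 of 6 classes: it stood at 31.7 and 41.8 CPM (log2 ratio 0.40, interval 0.11 to 0.68) in mononuclear phagocytes and 29.0 and 35.4 CPM (log2 ratio 0.29, interval -0.16 to 0.74) in pDC. Ndufv1 and Ndufs1 had opposite signs in B cells, T cells, pDC and mononuclear phagocytes.

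Ndufv3, an accessory subunit of that module, had the highest ratio of any member in neutrophils, and a smaller one within each neutrophil subset. It stood at 37.7 and 86.2 CPM (log2 ratio 1.19, interval 0.92 to 1.46) in all neutrophils, the only member past 2-fold there. In granule-poor neutrophils it stood at 36.0 and 57.7 CPM (log2 ratio 0.68, interval 0.28 to 1.07) and in granule-rich ones at 78.9 and 124 CPM (log2 ratio 0.65, interval 0.022 to 1.33). In the other 5 classes Ndufv3 lay between -0.12 and 0.11. Ndufb3, of the membrane arm, stood at 32.1 and 56.6 CPM (0.82) in all and 31.2 and 45.0 CPM (0.53) in granule-poor neutrophils. The accessory subunits Ndufa1, Ndufa11 and Ndufb11 had log2 ratios of 0.73, 0.62 and 0.60 in all neutrophils. These were 0.57, 0.27 and 0.32 in granule-poor and 0.10, 0.077 and 0.17 in granule-rich cells, so each was closer to 0 within the subsets.

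Ndufa10, an accessory subunit, stood at 63.6 and 69.4 CPM (log2 ratio 0.13, interval -0.26 to 0.51) in NK with ILC1, and the interval included 0. Ndufb1, an accessory subunit of the membrane arm with the most UMIs of complex I, had a ratio below 0 in each of the 6 classes. It stood at 701 and 508 CPM (log2 ratio -0.46, interval -0.54 to -0.39) in mononuclear phagocytes, the lowest ratio of that class, at 740.3 and 544 CPM (-0.44) in classical and 674 and 496 CPM (-0.44) in non-classical monocytes, and at 300.4 and 279 CPM (-0.11) in neutrophils. Ndufs4, an accessory subunit whose loss in mice models Leigh syndrome, stood at 146 and 109 CPM (-0.42) in mononuclear phagocytes and 58.4 and 79.9 CPM (0.45) in neutrophils.

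Single complex I members led other classes by smaller margins. Ndufb6, of the membrane arm, had the lowest ratio in pDC, at 101 and 71.0 CPM (log2 ratio -0.50, interval -0.77 to -0.23). Ndufs7, which carries an iron-sulfur cluster by the quinone site, had the highest ratio in B cells, at 62.2 and 73.9 CPM (log2 ratio 0.25, interval 0.10 to 0.40). The accessory subunit Ndufa6 had the highest in T cells, at 155 and 168 CPM (log2 ratio 0.12, interval 0.0044 to 0.24), and Ndufb9 the lowest in neutrophils, at 165 and 148 CPM (log2 ratio -0.16, interval -0.34 to 0.021). Ndufa3 and Ndufa13, accessory subunits with many UMIs, stood at 253 and 241 CPM (-0.068) and 256 and 220 CPM (-0.22) in T cells and at 257 and 254 CPM (-0.016) and 309 and 238 CPM (-0.38) in NK with ILC1. UMIs are tags of transcript 3′ ends and were not divided by length, so levels of different genes are not compared.

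Ndufa5 and Ndufc2 had the widest ranges between classes in complex I, by the mean of the libraries. Ndufa5 ranged 6.59-fold, from 15.7 CPM in neutrophils to 103 CPM in NK with ILC1, and Ndufc2 6.29-fold, from 30.0 CPM in neutrophils to 189 CPM in mononuclear phagocytes. Ndufa4, counted with complex I by its symbol but placed in complex IV in later work, stood at 634 and 452 CPM (-0.49) in NK with ILC1, 216 and 225 CPM (0.055) in B cells and 99.6 and 142 CPM (0.51) in neutrophils. In NK with ILC1 moving it gave sums of -0.26 for complex I and -0.29 for complex IV. Its paralogue Ndufa4l2, and Ndufb4b and Ndufb11b, were not measured in any class. Ndufb4 stood at 77.0 and 47.3 CPM (-0.70) in NK with ILC1, but it can share reads with Ndufb4b, so its values are uncertain.

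**Figure D3:**
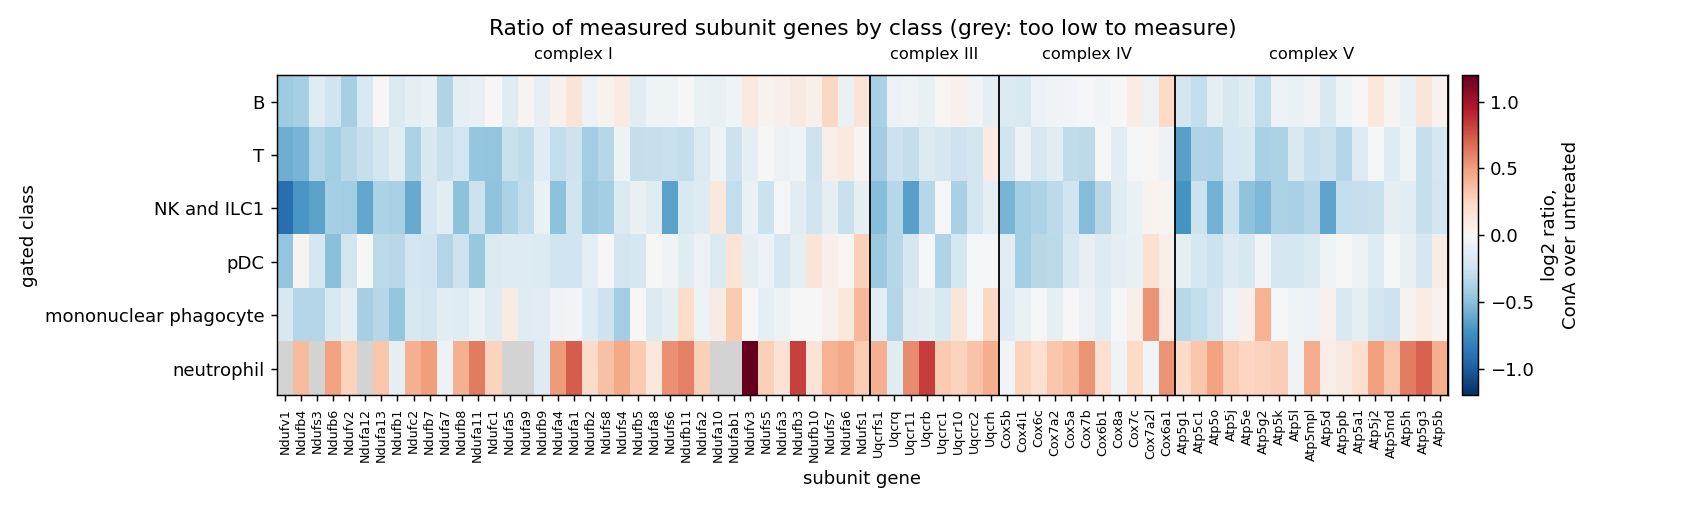
Log2 ratio of CPM, ConA over untreated (colour, blue below and red above 0), of measured members (x axis, grouped by complex) in the 6 classes (y axis), with grey for genes too low to measure. Most neutrophil values are above 0 and most T and NK with ILC1 values below 0.

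Complex III, the cytochrome bc1 complex, had its 8 member genes measured in each of the 6 classes. Its nuclear subunit cytochrome c1 (Cyc1) is not a member by symbol and is not in this sum. Its sum had log2 ratios of -0.30 in NK with ILC1, -0.18 in pDC, -0.14 in T cells, -0.087 in B cells, -0.047 in mononuclear phagocytes and 0.34 in neutrophils. Uqcrh, the hinge protein by which cytochrome c docks, departed from the sum in T cells, at 382 and 409 CPM (log2 ratio 0.10, interval 0.025 to 0.18), and in mononuclear phagocytes, at 348 and 414 CPM (log2 ratio 0.25, interval 0.16 to 0.34). Uqcrq, a small accessory subunit, was below 0 in each of the 6 classes, at 307 and 240.3 CPM (-0.35) in mononuclear phagocytes and 116 and 105 CPM (log2 ratio -0.14, interval -0.36 to 0.070) in neutrophils.

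The Rieske iron-sulfur protein Uqcrfs1 stood at 110.1 and 77.4 CPM (-0.51) in NK with ILC1, 112 and 82.3 CPM (-0.44) in pDC and 27.4 and 36.8 CPM (0.43) in neutrophils. Uqcr11, a small accessory subunit, was the complex III gene past 1.5-fold lower in NK with ILC1, at 204 and 129.6 CPM (log2 ratio -0.66, interval -0.90 to -0.41). Uqcrb, a subunit near a quinone site, was past 1.5-fold higher in neutrophils, at 34.9 and 62.0 CPM (log2 ratio 0.83, interval 0.52 to 1.13). Within granule-poor neutrophils it stood at 33.9 and 39.1 CPM (log2 ratio 0.20, interval -0.28 to 0.66), an interval that included 0. Uqcrfs1 and Uqcrb had the widest ranges between classes in complex III, 4.43-fold and 4.41-fold, from neutrophils to mononuclear phagocytes.

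Complex IV, cytochrome c oxidase, took 27.5% of member UMIs in untreated and 26.0% in ConA neutrophils, against 23.3% to 25.9% in the other 5 classes. The complex IV subunit Cox6a2 is not a member and is in neither these shares nor the sums. It stood at 1315 CPM in untreated pDC, so the pDC values for complex IV are incomplete. The order of the shares holds for the members alone. The sum of the complex IV members had log2 ratios of -0.26 in NK with ILC1, -0.18 in pDC, -0.13 in T cells, -0.025 in B cells, -0.0081 in mononuclear phagocytes and 0.19 in neutrophils. No complex IV gene was past 1.5-fold in any of the 6 classes. Cox8a, a small structural subunit, differed little, at 677 and 613 CPM (-0.14) in NK with ILC1, 391 and 379 CPM (-0.044) in neutrophils and 284 and 285 CPM (0.0057) in B cells. Cox7c was likewise close, at 497 and 471 CPM (-0.077) in NK with ILC1 and 409.7 and 404 CPM (-0.022) in T cells, while Cox6c stood at 456 and 354 CPM (-0.37) and 363 and 317 CPM (-0.19).

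Cox4i1, the regulatory subunit that binds nucleotides, stood at 556 and 419.7 CPM (-0.41) in NK with ILC1, 646 and 486 CPM (-0.41) in pDC and 254 and 305 CPM (0.27) in neutrophils. Cox5b, which binds zinc, was below 0 in each of the 6 classes, at 399 and 271 CPM (-0.56) in NK with ILC1 at the most, but some of its reads can come from the copy Cox5b-ps. Cox7b and Cox5a had the widest ranges between classes in complex IV, 3.69-fold and 3.22-fold, with neutrophils lowest. Cox6b1 stood at 347 and 275 CPM (-0.34) in NK with ILC1. The tissue-restricted paralogues Cox4i2, Cox6b2, Cox7a1, Cox7b2, Cox8b and Cox8c and the copy Cox5b-ps were too low to measure in each of the 6 classes, and Cox8b and Cox8c had 0 UMIs in them.

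Cox7a2l, which helps to join complexes III and IV into supercomplexes and is shortened in C57BL/6 mice, had the highest ratio of any member in mononuclear phagocytes. It stood at 183 and 265 CPM (log2 ratio 0.54, interval 0.42 to 0.65) there, and at 181 and 272 CPM (0.59) in classical monocytes, 188 and 264 CPM (0.49) in non-classical monocytes and 175 and 247 CPM (0.49) in C1q-positive macrophages. The value was higher in the ConA library in each of these subsets. Its paralogue Cox7a2 stood at 243 and 225 CPM (-0.11) in the same class. In pDC Cox7a2l stood at 155 and 175 CPM (log2 ratio 0.18, interval -0.0094 to 0.38), and in B, T, NK with ILC1 and neutrophil classes it lay between -0.073 and 0.045. Within T cells it stood at 140 and 210 CPM (log2 ratio 0.58, interval 0.060 to 1.15) in gamma-delta T cells, on 33 and 293 UMIs. The ratio was 0.094 in Zbtb16-positive, 0.037 in effector-like CD8, -0.057 in naive-like CD4, -0.072 in regulatory and -0.14 in effector-like CD4 T cells. Cox6a1, the widely expressed form of its pair, was above 0 in 5 of 6 classes, at 144 and 170.1 CPM (log2 ratio 0.24, interval 0.14 to 0.34) in B cells and 111 and 161 CPM (log2 ratio 0.54, interval 0.35 to 0.72) in neutrophils.

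Promoter windows were searched for motifs because NRF1, GABP and YY1 are known regulators of respiratory genes. RefSeq windows of 300 bases, 250 before and 50 after the annotated start in build GRCm38.p6, were found for 68 members. The NRF1 motif GCGCNTGCG, sought on both strands, occurred in 22 of these genes (32.4%), against 9.68% of 17491 protein-coding genes with windows of the same length. The YY1 motif AAGATGGCG occurred in 10.3% against 2.14%, the CRE motif TGACGTCA in 5.88% against 2.54%, the ETS motif of GABP, CCGGAAGT, in 7.35% against 5.69%, and the ERR motif TCAAGGTCA in 1.47% against 0.377%. The NRF1 motif is nearly its own reverse complement, so matches on both strands can overlap, and a match is a run of letters and no measured site. The window of Cox6a1 (chr5:115348909-115349208, minus strand) is shown because it held the most NRF1 matches in complex IV, 3, of which 2 overlap. Capitals mark the matches.
Cox6a1: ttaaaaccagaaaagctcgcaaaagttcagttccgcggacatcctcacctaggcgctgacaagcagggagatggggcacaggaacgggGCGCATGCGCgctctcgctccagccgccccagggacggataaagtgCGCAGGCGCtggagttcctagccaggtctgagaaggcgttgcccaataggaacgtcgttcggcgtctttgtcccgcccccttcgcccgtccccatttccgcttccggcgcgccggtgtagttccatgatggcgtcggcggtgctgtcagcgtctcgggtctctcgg

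Complex V, the ATP synthase, had all 17 genes measured in each of the 6 classes, and the lowest ratio of the 4 complex sums in T cells and in NK with ILC1. Its sum had log2 ratios of -0.35 in NK with ILC1, -0.24 in T cells, -0.13 in pDC, -0.091 in B cells, -0.049 in mononuclear phagocytes and 0.28 in neutrophils. All 17 genes were below 0 in T cells and in NK with ILC1, and 16 of 17 above 0 in neutrophils. Of all genes, 22.3% in T cells and 15.4% in NK with ILC1 had a counting interval below 0. In neutrophils 47.0% of all genes had an interval above 0, and the median of all genes was above 0. An interval clear of 0 is a stricter criterion than the sign of a ratio. These shares are therefore no direct background for the sign counts, and shares of all genes by sign are not given. In T cells and NK with ILC1 the median of all genes was also above 0. Past 1.5-fold lower were Atp5g1 and Atp5d in NK with ILC1 and Atp5g1 in T cells, and past 1.5-fold higher were Atp5g3 and Atp5h in neutrophils. Atp5g3 stood at 0.71 in all, 0.55 in granule-poor and 0.38 in granule-rich neutrophils, and Atp5h, of the peripheral stalk, at 0.61, 0.44 and 0.22. Atp5d, the delta subunit of the central stalk, stood at 288 and 185 CPM (-0.64) in NK with ILC1.

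Atp5e, the epsilon subunit of the central stalk, stood at 719 and 515 CPM (-0.48) in NK with ILC1 and 531 and 554 CPM (0.061) in mononuclear phagocytes. Atp5l, the g subunit of the membrane part, was below 0 in each of the 6 classes, at 489 and 374 CPM (-0.38) in NK with ILC1 and 374 and 362 CPM (-0.046) in neutrophils. Atp5h, the d subunit of the outer stalk, stood at 344 and 331 CPM (-0.053) in T cells and 125 and 192 CPM (0.61) in neutrophils. The catalytic head subunits Atp5a1 and Atp5b lay between -0.27 and 0.44 over the 6 classes.

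Atp5g1, Atp5g2 and Atp5g3 encode the same mature c subunit, which forms the ring turned by protons, with different import sequences, and their ratios differed. Any link between promoter motifs and these ratios was not tested. The promoter windows of the 3 genes are shown as sequences, all on the minus strand, with NRF1 and ERR matches in capitals. That of Atp5g1 (chr11:96075582-96075881) held none of the 5 motifs, that of Atp5g2 (chr15:102670998-102671297) 2 overlapping NRF1 matches, and that of Atp5g3 (chr2:73911277-73911576) an ERR match followed by an NRF1 match.
Atp5g1: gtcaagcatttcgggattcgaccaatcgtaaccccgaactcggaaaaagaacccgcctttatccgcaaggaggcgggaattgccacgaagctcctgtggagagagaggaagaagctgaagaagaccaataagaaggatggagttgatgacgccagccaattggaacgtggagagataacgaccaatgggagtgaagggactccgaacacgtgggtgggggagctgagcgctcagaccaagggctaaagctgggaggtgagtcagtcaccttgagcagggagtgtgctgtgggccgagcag
Atp5g2: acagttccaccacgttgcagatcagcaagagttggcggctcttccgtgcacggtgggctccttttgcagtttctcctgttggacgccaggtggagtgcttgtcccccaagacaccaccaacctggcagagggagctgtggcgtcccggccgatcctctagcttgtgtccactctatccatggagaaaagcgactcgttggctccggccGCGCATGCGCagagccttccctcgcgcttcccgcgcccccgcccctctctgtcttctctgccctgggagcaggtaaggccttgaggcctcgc
Atp5g3: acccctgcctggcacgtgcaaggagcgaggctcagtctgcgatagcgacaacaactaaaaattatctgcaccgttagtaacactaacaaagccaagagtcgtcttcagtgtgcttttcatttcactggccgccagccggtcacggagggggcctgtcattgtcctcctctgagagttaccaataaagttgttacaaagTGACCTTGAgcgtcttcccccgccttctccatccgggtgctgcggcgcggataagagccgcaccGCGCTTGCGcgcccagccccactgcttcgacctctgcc

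Atp5g1 had the lowest ratio of any member in T cells, at 209 and 134 CPM (log2 ratio -0.65, interval -0.76 to -0.54), and stood at 243 and 148 CPM (log2 ratio -0.72, interval -0.95 to -0.49) in NK with ILC1. Among T subsets the lowest ratios were in effector-like cells, at 328 and 94.6 CPM (log2 ratio -1.79, interval -2.67 to -0.86) for CD4 on 17 and 34 UMIs and 251 and 90.0 CPM (log2 ratio -1.48, interval -1.92 to -1.02) for CD8 on 64 and 132 UMIs. It stood at 262 and 145 CPM (log2 ratio -0.86, interval -1.10 to -0.62) in Zbtb16-positive T cells and 112 and 101 CPM (log2 ratio -0.14, interval -0.81 to 0.53) in naive-like CD4 T cells, where the interval included 0. Within CD4 T cells the untreated effector-like value of 328 CPM stood above the naive-like one of 112 CPM. The ConA values, 94.6 and 101 CPM on 34 and 39 UMIs, were close, and this change was not tested. Atp5g2 stood at 369 and 281 CPM (-0.39) in T cells and 359 and 247 CPM (-0.54) in NK with ILC1, and Atp5g3 at 302 and 249.8 CPM (-0.27) and 309 and 256 CPM (-0.27). In both lymphocyte classes Atp5g1 had the lowest ratio of the 3 genes and Atp5g3 the highest.

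In mononuclear phagocytes the c subunit genes had opposite signs. Atp5g1 stood at 218 and 172 CPM (log2 ratio -0.34, interval -0.47 to -0.20), Atp5g2 at 244 and 324 CPM (log2 ratio 0.41, interval 0.31 to 0.51) and Atp5g3 at 242 and 259 CPM (log2 ratio 0.093, interval -0.019 to 0.20). Atp5g2 was higher in the ConA library in classical (233 and 299.8 CPM) and non-classical monocytes (252 and 335 CPM) alike. In neutrophils Atp5g3 stood at 48.3 and 78.9 CPM (log2 ratio 0.71, interval 0.44 to 0.97), Atp5g2 at 58.7 and 71.1 CPM (0.28) and Atp5g1 at 33.9 and 39.7 CPM (0.23). In B cells Atp5g2 stood at 269 and 219 CPM (-0.30) and Atp5g3 at 134 and 149 CPM (0.15), again with opposite signs. Between classes Atp5g1 ranged 5.32-fold and Atp5g2 5.03-fold, with neutrophils lowest. Near copies elsewhere in the genome could share reads with these genes, which makes their values uncertain.

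**Figure D4:**
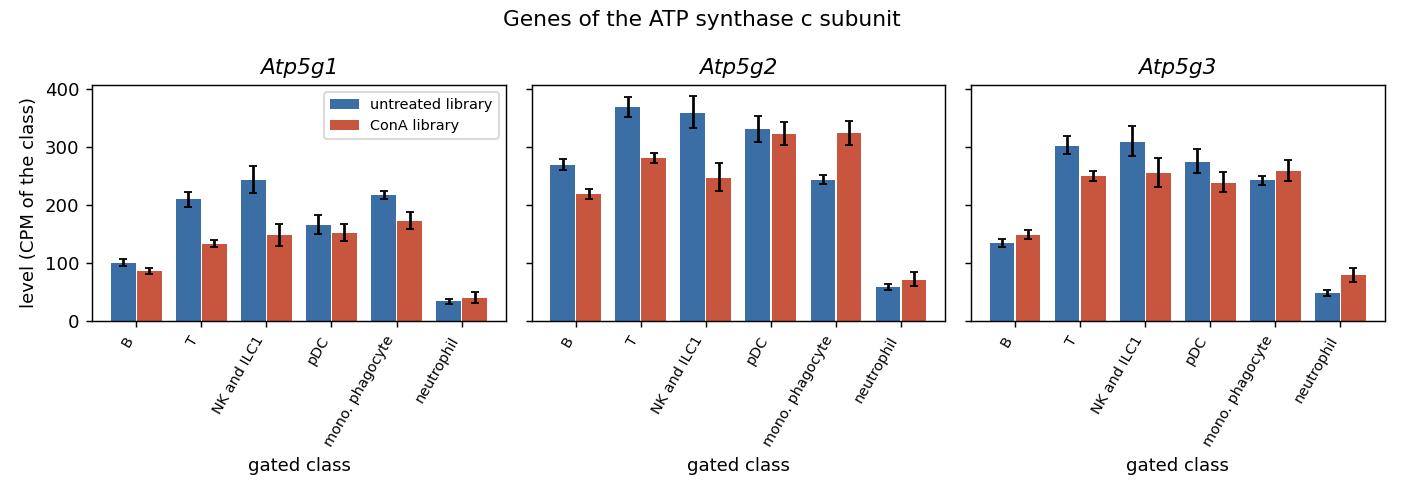
Level in CPM of the class (y axis) of the 3 genes of the ATP synthase c subunit in the 6 classes (x axis) for the untreated and ConA libraries, with exact Poisson 95% intervals of counting error. Atp5g1 is lower in the ConA library in T cells and NK with ILC1, and Atp5g2 is higher in it in mononuclear phagocytes.

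The 13 subunits encoded by mitochondrial DNA did not follow the nuclear ones in every class. Their sum stood at 9255 and 6816 CPM in neutrophils (log2 ratio -0.44, interval -0.47 to -0.42), where the nuclear sum was higher in the ConA library, and at 13417 and 15491 CPM in mononuclear phagocytes (0.21, interval 0.19 to 0.22), where the nuclear sum was lower. In T cells, NK with ILC1, B cells and pDC both sums were lower, the mitochondrial one with ratios of -0.25, -0.25, -0.23 and -0.091. The ratio of nuclear to mitochondrially encoded UMIs was 0.687 in untreated and 1.12 in ConA neutrophils, and 1.27 and 1.05 in mononuclear phagocytes. In B cells it was 0.313 and 0.353, the lowest of the 6 classes. Cells above 10% mitochondrial UMIs had been removed, which caps these values.

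Among the mitochondrially encoded genes complex I had a lower log2 ratio than complex IV in each of the 6 classes. The complex I sum stood at -0.80 in neutrophils, -0.51 in NK with ILC1 and -0.43 in T cells, against -0.21, -0.086 and -0.12 for complex IV. It stood at -0.37 in B cells and -0.24 in pDC, against -0.13 and -0.0051, and in mononuclear phagocytes both were above 0, at 0.13 and 0.24. In neutrophils mt-Nd1, a core complex I subunit, stood at 814 and 424 CPM (-0.94) and mt-Cytb, of complex III, at 817 and 506 CPM (-0.69), while mt-Co1, the catalytic core of complex IV, stood at 1583 and 1540.1 CPM (-0.040). Over the 6 classes mt-Co1 lay between -0.040 and 0.21 and mt-Nd1 between -0.94 and -0.10.

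**Figure D5:**
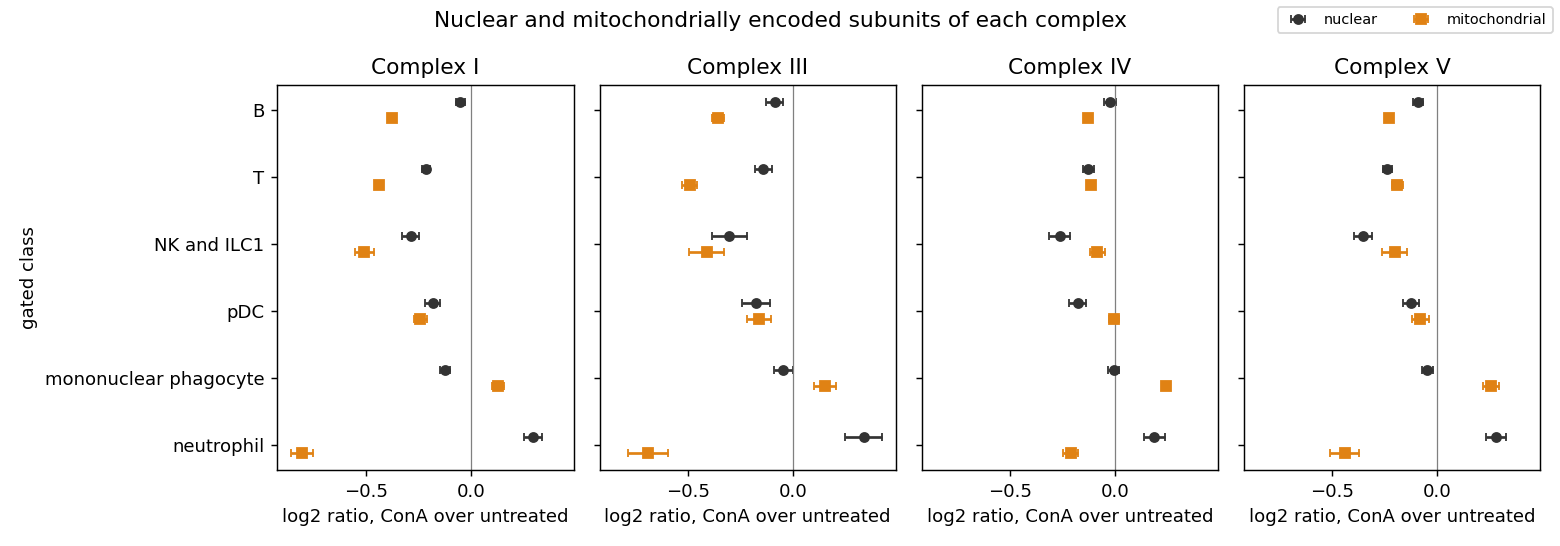
Log2 ratio of summed CPM, ConA over untreated (x axis), of the nuclear (black circles) and mitochondrially encoded (orange squares) subunits of each complex in the 6 classes (y axis), with exact conditional Poisson 95% intervals. In neutrophils the nuclear points lie above 0 and the mitochondrial ones below 0 in each of the 4 complexes, and in mononuclear phagocytes the order is the opposite, with the nuclear complex IV point at -0.0081.

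Other genes of the pathway were counted from lists set by role. The electron carrier Cycs, cytochrome c, had lower ratios than the subunit sums, at 324 and 171 CPM (log2 ratio -0.92, interval -1.13 to -0.71) in NK with ILC1 and 194 and 119 CPM (log2 ratio -0.71, interval -0.82 to -0.59) in T cells. In complex II 3 of 4 genes were below 0 in each class but neutrophils, and Sdha, the flavoprotein, was the other one, at 75.4 and 104 CPM (0.47) in NK with ILC1 beside 154 and 98.9 CPM (-0.64) for Sdhb, its iron-sulfur partner. Mitochondrial ribosomal proteins had 58 of 67 measured genes below 0 in T cells and 54 of 66 in NK with ILC1, of which 7 and 14 were past 1.5-fold lower, beside 4.66% and 6.91% of all genes. The median of all measured genes was above 0 in both classes. Glycolysis genes had medians of -0.42 in NK with ILC1, -0.22 in T cells and 0.28 in neutrophils. TCA cycle genes had medians of -0.11, -0.16 and 0.70, with 5 of 13 measured in neutrophils.

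Assembly factors of the complexes had medians nearer 0 than the subunits in T cells (0.0095, 11 of 20 measured genes above 0) and NK with ILC1 (-0.081, 8 of 20 above 0). The median of all measured genes was above 0 in each of the 6 classes. Among regulators, Nrf1 was likewise above 0 in each, at 123 and 153 CPM (0.32) in T cells and 125 and 166 CPM (0.41) in NK with ILC1. Tfam, which packages and transcribes mitochondrial DNA, stood at 48.7 and 36.6 CPM (-0.41) and 41.2 and 24.6 CPM (-0.74) in the same classes. The ADP/ATP carrier Slc25a5 stood at 312 and 213 CPM (-0.56) in T cells and 351 and 203 CPM (-0.79) in NK with ILC1. Cytosolic ribosomal proteins, beside which the subunits can be read, had medians of -0.21 in T cells and -0.36 in NK with ILC1, and of 0.31 in mononuclear phagocytes, where the subunits stood at -0.081.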

How the data were processed

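The members and lists were chosen with earlier results of these data known. The authors deposited 1 matrix of UMI counts for each library, from a 3′ kit per the labels' protocols. The file headers name software 8.0.1, while Seurat 4.3.0, Cell Ranger 6.0.1 and the build mm39 are given per the submitters' processing notes, and promoter windows are RefSeq GRCm38.p6. The filters were a minimum of 500 UMIs and of 300 genes per cell and a maximum of 10% mitochondrial UMIs. A class required 3 own-marker UMIs (2 for T cells and NK with ILC1, 20 for plasma cells) and 4 times as many as of all other lineages, with marker exceptions between related lineages. Doublets were limited by this gate alone. Counts were pooled by class within each library and scaled to CPM. Intervals are exact Poisson, for counting error only, and no p-value was computed. The ratio, its interval and the 1.5-fold call were tested on simulated Poisson counts, the error model that the interval assumes. Gating, filters, free RNA and spread between cells were not simulated. Named genes were, per complex, the 4 with the highest level and 2 with the widest range, per class the 2 highest and 2 lowest ratios, and paralogue families, and 1 gene that this rule names is not reported here. Members listed as past a fold, Ndufb3, Ndufb4, Cox5b, Atp5a1, Atp5b, the genes named from other lists and the genes named within subsets were chosen after their values were seen. The sign pattern counted over the 6 classes was that of the summed members in the same data. Alternatives varied the gate, filters, denominator, centring, fold and cells used. Python 3.11.15, numpy 2.4.6, pandas 2.3.3, scipy 1.17.1 and matplotlib 3.10.9 were used.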

Additional observations from a re-analysis of the deposited data

Results flagged for a closer look

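The summed nuclear subunits had a log2 ratio, ConA over untreated, of 0.27 in neutrophils, while it was below 0 in each of the other 5 classes. Higher values were common among all measured neutrophil genes, of which 23.6% were past 1.5-fold higher and 47.0% had an interval above 0. Centred on the median of all genes, the neutrophil ratio was close to 0, as given below. The sum of the 13 mitochondrially encoded subunits had a ratio of 0.21 in mononuclear phagocytes, while it was below 0 in each of the other 5 classes. With 1 library per group these differences between classes were not tested. Cox6a2, a complex IV subunit known from muscle and left out of the members, stood at 1315 and 1189 CPM in untreated and ConA pDC and at 5.57 and 5.54 CPM in B cells.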

How the results depend on the processing

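None of the 6 summed ratios changed sign under any alternative run. In the order B cells, T cells, NK with ILC1, pDC, mononuclear phagocytes and neutrophils, centring on the median of all genes gave -0.14, -0.27, -0.40, -0.24, -0.21, 0.012. In the same order the stricter gate gave -0.062, -0.053, -0.14, -0.21, -0.091, 0.32, with fewer than 100 cells in a library for NK with ILC1, pDC and mononuclear phagocytes. Leaving mitochondrially encoded and ribosomal protein genes out of the denominator gave -0.089 in B cells, -0.24 in T cells, -0.36 in NK with ILC1 and -0.018 in mononuclear phagocytes. Subtracting 10% free RNA gave -0.041 in B cells and 0.36 in neutrophils. The mean of per-cell shares gave -0.16 in T cells and -0.28 in NK with ILC1, and leaving out the deepest 10% of cells gave -0.16 in T cells and -0.13 in mononuclear phagocytes. Without cycling cells the ratio was -0.092 in B cells, -0.16 in T cells, -0.14 in mononuclear phagocytes and 0.22 in neutrophils. A looser gate gave -0.041 in B cells and 0.22 in neutrophils, and a denominator without immunoglobulin, haemoglobin, S100a8 and S100a9 gave -0.042 and 0.32 in the same. These last 3 alternatives (no cycling cells, the looser gate and that denominator) were chosen after seeing the data. The share of all genes called under each setting stands in brackets. With a ratio of 5 to 4 as the limit, the members lower were 5 in B cells (9.53%), 17 in T cells (12.9%), 34 in NK with ILC1 (18.0%), 12 in pDC (13.4%) and 8 in mononuclear phagocytes (15.3%), and those higher 1 in NK with ILC1 (28.4%), 3 in mononuclear phagocytes (32.6%) and 34 in neutrophils (43.7%). At 2-fold 0 were lower in T cells (1.77%) and in NK with ILC1 (2.13%), and 1 was higher in neutrophils (7.75%). After centring 3 were lower in T cells (6.25%), 15 in NK with ILC1 (9.66%) and 1 in mononuclear phagocytes (11.1%), and 1 was higher in neutrophils (12.3%). With no filter on low genes 1 was higher in B cells (14.4%), 1 in NK with ILC1 (19.95%), 2 in pDC (18.5%), 2 in mononuclear phagocytes (32.0%) and 13 in neutrophils (37.7%), and 2 were lower in T cells (18.9%) and 1 in neutrophils (12.5%). The causes were not tested. Depth limits single genes in neutrophils, where 7 members were too low to measure, and in NK with ILC1, where Ndufv1 rests on 71 and 33 UMIs. No paired analysis was possible because each group is 1 library.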

Other observations

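Erythroid and plasma cells had too few untreated cells to be compared, and their levels stand side by side. Erythroid cells held 1423 and 2489 CPM of nuclear subunit transcripts in the untreated and ConA library (83 and 805 cells). Immunoglobulin, haemoglobin and S100a8 and S100a9 genes took 85.2% and 80.0% of their UMIs, and without these genes the levels were 9636 and 12443 CPM. Cycling erythroid cells held 1402 against 1558 CPM in the others of the untreated library (23 and 33 cells), an interval of the ratio that included 0, and 4053 against 2149 CPM in those of the ConA library (120 and 486 cells). These are pooled sums, and the median share per cell in the ConA library had the other order, 0.186% in cycling and 0.198% in the other cells. Complex I took 28.3% and 29.7% of their member UMIs, against 34.0% to 36.6% in the 6 compared classes.

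Plasma cells, which secrete antibody, held 14325 and 13803 CPM (8 and 251 cells), and 24840.2 and 22558 CPM without the same dominant genes. Complex I took 40.9% of member UMIs in ConA plasma cells. Ndufa4 alone stood at 798 and 1026 CPM in plasma cells, against 216 and 225 CPM in B cells.

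Over 12 points (6 classes in 2 libraries) the genes outside the members whose log2 level was most like the summed member level were Edf1 (Pearson r = 0.983), Psmb5 (0.982), Pdia3 (0.982), Srp9 (0.980) and Mrpl4 (0.980). The median r over 6764 genes was 0.319 and the 95th percentile 0.874. The points share 2 libraries and their depth, so r is a description.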
